A study of Homo sapiens with 6 samples.

Results

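Replication-dependent histone mRNAs were followed through an RNA immunoprecipitation experiment (RIP-seq) on LARP1 in the human colorectal carcinoma cell line HCT116. The genes were 10 histone genes chosen by Ensembl ID among 60554 gene IDs, namely the linker histone genes HIST1H1B, HIST1H1C, HIST1H1D and HIST1H1E, the H4 genes HIST1H4C and HIST1H4H, the H2A gene HIST1H2AC, and the H2B genes HIST1H2BD, HIST1H2BK and HIST2H2BE. The 6 libraries all came from the fraction labelled 40S of a gradient, called the free 40S fraction in the series text and a 40S monosome fraction in the sample descriptions. They were 2 libraries of RNA pulled down by an antibody to LARP1 (LARP1 IP), 2 pulled down by control IgG from normal rabbit serum (IgG IP), which measure background, and 2 of RNA taken without an antibody (Input). The labels call the libraries of a group biological replicates and name no treatment, genotype or separate cultures, so the spread behind each p-value is that of these libraries and may be technical. LARP1 binds RNA and is best known for its hold on mRNAs whose 5′ end is a terminal oligopyrimidine (TOP) motif, and the question of the series was which transcripts it binds in this fraction.

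Histone mRNAs of this class supply the proteins that package newly made DNA, and they accumulate in S phase. They are short, are mostly transcribed from genes without introns, and mostly end in a conserved stem-loop instead of a poly(A) tail. The stem-loop is bound by SLBP, which takes over roles in translation that poly(A)-binding protein has on other mRNAs. H2A, H2B and H4 are core histones of the nucleosome, and H1 proteins bind the linker DNA between nucleosomes. Libraries were made without poly(A) selection, so mRNAs ending in a stem-loop could enter every library.

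The first bases of the mRNAs are shown because LARP1 recognises a cap followed by a C and a run of pyrimidines. The sequences below begin at the RefSeq start (GRCh38.p14), and capitals mark the unbroken run of C or T from the first base, where there is one. RefSeq sequences were matched for 9 of the 10 genes, HIST1H4C being the other.
HIST1H1B at chr6:27867569-27867588, minus strand: aacgcaaaacctgctcttta
HIST1H1C at chr6:26056451-26056470, minus strand: atcggcgctttgccacttgt
HIST1H1D at chr6:26234968-26234987, minus strand: atgctgttctgacagtttga
HIST1H1E at chr6:26156329-26156348, plus strand: Cgagtcccggccagtgcctc
HIST1H4H at chr6:26285515-26285534, minus strand: aggtttcttaagttggtttt
HIST1H2AC at chr6:26124172-26124191, plus strand: gattttgtttgttttctcgt
HIST1H2BD at chr6:26158121-26158140, plus strand: gattattttctcaggtgttt
HIST1H2BK at chr6:27146839-27146858, minus strand: CCCattacttcccgttttct
HIST2H2BE at chr1:149886663-149886682, minus strand: acttcttttcttggctaagc
Only HIST1H1E and HIST1H2BK began with a pyrimidine among these entries, with runs of 1 and 3 bases. HIST1H2BD had a second annotated start at the next base (26158122), and HIST1H2BK had one slightly downstream (27146855). The second start began with an A in either gene.

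A start with C and at least 4 further pyrimidines was found in 0 of the 9 histone genes, against 1104 of 27305 genes in the table (4.04%). Among 57 other replication-dependent histone genes it was found in 1. Among 67 ribosomal protein genes, the class LARP1 is best known for, it was found in 44 (65.67%), with a median run of 7 bases. The motif TATAA on the coding strand lay 16 to 40 bases upstream of the start in 8 of the 9 histone genes. HIST1H1C was the exception. The shares were 4.22% of all genes, 10.45% of the ribosomal protein genes and 73.68% of the other replication-dependent histone genes. Among 10 genes of replication-independent histone variants the share was 40%. The motif CCAAT, on either strand, lay within the 250 bases upstream in 8 of 9, HIST1H4H being the exception, against 33.04% of all genes. It lay there in 84.21% of the other replication-dependent histone genes and in 70% of the variant genes, so neither motif was particular to the 9 genes. Annotated starts can differ from the starts used in these cells, and a match or its absence describes these letters only.

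Total counts per library ran from 4135463 to 8069554. The 2 genes with the most counts took 87.88% and 88.65% of Input, 70.85% and 71.5% of the IgG IP, and 21.27% and 26.64% of the LARP1 IP. Counts left for all other genes ranged from 752862 in an Input library to 3823470 in a LARP1 IP library. Levels are given as CPM, counts scaled to the size of the library, with TMM factors that set the bulk of genes equal between libraries. A lower level therefore means lower relative to the bulk of genes, and the amount of RNA recovered is unknown. Epithelial markers and other gene lists could not be read, because the files give no gene symbols.

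HIST1H1B (ENSG00000184357.4) and HIST1H1D (ENSG00000124575.6), the genes of the linker histones H1.5 and H1.3, were listed at 0 counts in all 6 libraries. At these depths a count of 0 allows up to 3 counts, which corresponds to 0.277 CPM in IgG IP replicate 1 and 1.01 CPM in Input replicate 1, the lowest and highest of these limits. The limit is one on reads assigned to these IDs, and how reads of similar gene copies were assigned is not given in the sources used here, so it is no bound on the level of the mRNAs. The other linker genes had between 151 and 1743 counts in every library. No comparison between groups could be made for HIST1H1B or HIST1H1D, and 36322 of the 60554 IDs likewise had no count in any library. The remaining 8 histone genes all passed the filter on low counts, which kept 10788 genes.

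The 8 histone mRNAs were scarcest in the LARP1 IP. Their summed level was 117 and 133 CPM in the LARP1 IP, 448 and 286 CPM in the IgG IP, and 817 and 358 CPM in Input. In each group the first value is replicate 1. The LARP1 IP libraries lay below all 4 control libraries, while the IgG IP and Input libraries overlapped. As a share of the counts outside the 2 most abundant genes, the 8 genes took 0.0293% (95% Wilson interval 0.0276 to 0.0310) and 0.0219% (0.0204 to 0.0236) of the LARP1 IP, 0.226% (0.220 to 0.232) and 0.125% (0.121 to 0.130) of the IgG IP, and 0.323% (0.311 to 0.336) and 0.148% (0.140 to 0.157) of Input. These intervals cover counting error only. As a share of all counts the order differed, the LARP1 IP holding 0.0215% and 0.0173%, the IgG IP 0.0659% and 0.0358%, and Input 0.0367% and 0.0180%. On that scale the LARP1 IP and Input overlapped.

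**Figure D1:**
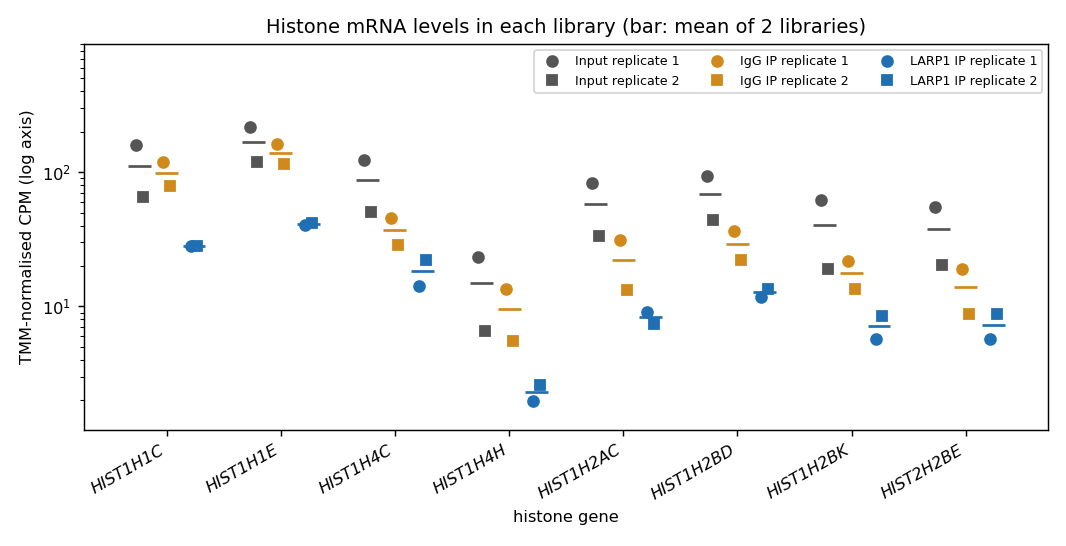
TMM-normalised CPM on a log axis for the 8 histone genes with counts, with 1 symbol per library (circles for replicate 1, squares for replicate 2) and a bar at the mean of the 2 libraries of each group. For each gene the 2 LARP1 IP libraries lie below the 4 control libraries, and replicate 1 lies above replicate 2 in Input and in the IgG IP. Of all genes, 25.9% lay below both IgG IP libraries and 22.8% below both Input libraries. The share below all 4 was not counted.

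Among the linker histones, HIST1H1E (ENSG00000168298.6; H1.4) was the most abundant of the 8 by CPM. It stood at 40.4 and 41.5 CPM in the LARP1 IP, 161 and 115 CPM in the IgG IP, and 218 and 118 CPM in Input. The LARP1 IP libraries were nearly equal and lay far below the controls, whose ranges overlapped. HIST1H1C (ENSG00000187837.3; H1.2), a linker variant also expressed outside S phase, stood at 28.2 and 28.1 CPM in the LARP1 IP, 119 and 79.3 CPM in the IgG IP, and 158 and 65.5 CPM in Input. It showed the same order, with IgG IP replicates inside the Input range. In counts, the 2 genes had 385 and 223 (HIST1H1E) and 269 and 151 (HIST1H1C) in the LARP1 IP.

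The H4 genes encode the same core histone protein, and reads of near-identical copies may be shared or lost between such genes. HIST1H4C (ENSG00000197061.4) stood at 14.3 and 22.3 CPM in the LARP1 IP, 45.2 and 28.8 CPM in the IgG IP, and 123 and 50.6 CPM in Input. Here the 3 groups did not overlap and ran in the order LARP1 IP, IgG IP, Input. HIST1H4H (ENSG00000158406.4) was the scarcest of the 8 by CPM, at 1.99 and 2.60 CPM in the LARP1 IP, 13.6 and 5.56 CPM in the IgG IP, and 23.5 and 6.52 CPM in Input. Its LARP1 IP values rest on 19 and 14 counts, and its IgG IP and Input libraries overlapped.

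The H2A gene HIST1H2AC (ENSG00000180573.9) stood at 9.13 and 7.44 CPM in the LARP1 IP, 31.2 and 13.3 CPM in the IgG IP, and 83.2 and 33.5 CPM in Input, with no overlap between groups. HIST1H2BD (ENSG00000158373.8), an H2B gene, stood at 11.9 and 13.6 CPM in the LARP1 IP, 36.6 and 22.2 CPM in the IgG IP, and 93.6 and 44.4 CPM in Input, again with no overlap. Between any given 2 groups, 19.3% to 25.9% of all genes showed no overlap in the same direction. The share of all genes with the order of all 3 groups seen in HIST1H4C, HIST1H2AC and HIST1H2BD was not counted. HIST1H2BD and HIST1H2BK span 13229 and 8566 bases in RefSeq, with 3 transcripts each, unlike the short spans of the other genes on chromosome 6, which run from 405 to 797 bases. HIST1H2BK (ENSG00000197903.7) stood at 5.77 and 8.56 CPM in the LARP1 IP, 21.6 and 13.6 CPM in the IgG IP, and 61.7 and 18.9 CPM in Input, where IgG IP replicate 1 exceeded Input replicate 2. HIST2H2BE (ENSG00000184678.9), the only one of the 10 on chromosome 1, stood at 5.77 and 8.74 CPM in the LARP1 IP, 19.1 and 8.83 CPM in the IgG IP, and 55.3 and 20.5 CPM in Input. Its LARP1 IP replicate 2 and IgG IP replicate 2 were nearly equal, and the groups otherwise kept the same order.

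Levels were compared between genes per kilobase of RefSeq span for the 5 genes with a single short transcript. In Input, HIST1H4C stood at 215 ± 127 CPM per kb and HIST1H1E at 213 ± 89.4 (SD, n = 2 each), followed by HIST1H1C at 153 ± 89.5, HIST1H2AC at 112 ± 67.7 and HIST1H4H at 36.7 ± 29.3. Neighbours in this order differed by less than their spread, apart from HIST1H2AC and HIST1H4H, which differed by more than either SD. In the LARP1 IP the per-kilobase levels were 52.0 ± 0.983 for HIST1H1E, 45.2 ± 14.1 for HIST1H4C, 38.5 ± 0.126 for HIST1H1C, 15.96 ± 2.30 for HIST1H2AC and 5.62 ± 1.06 for HIST1H4H. HIST1H4C did not differ there from either linker gene beyond its spread. The gene models used for counting may differ from the RefSeq spans.

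Against Input, which asks how the LARP1 IP differs from the RNA of the fraction, all 8 histone mRNAs with counts were lower in the LARP1 IP. With the quasi-likelihood test of edgeR, adjusted by Benjamini-Hochberg over 10788 genes, 8 of 8 passed as lower and 0 as higher, where 1.52% of all genes passed as lower and 4.63% as higher. DESeq2 also called 8 of 8 lower, against 1.83% of all genes, and at an unadjusted p under 0.05 edgeR had 8 of 8 as lower, against 7.96% of all genes. Log2 fold changes ran from -1.99 to -2.81 with a median of -2.42, against a median of 0.0328 over all genes tested. The largest belonged to HIST1H2AC, at -2.81 ± 0.55 (SE; edgeR adjusted p = 0.0084), or 6.997-fold lower. HIST1H4H followed at -2.71 ± 0.65 (edgeR adjusted p = 0.0247). The H2B genes lay close together, with HIST1H2BK at -2.50 ± 0.56, HIST1H2BD at -2.44 ± 0.47 and HIST2H2BE at -2.39 ± 0.56. HIST1H4C stood at -2.25 ± 0.50. The linker genes had the smallest differences, HIST1H1E at -2.04 ± 0.43 and HIST1H1C at -1.99 ± 0.47 (edgeR adjusted p = 0.0133 and 0.0241). The genes differed among themselves by little more than these standard errors, and their order was another without Input replicate 1, where HIST1H1E at -1.51 lay below HIST1H4H at -1.49 and HIST1H2BK at -1.40. In the ranking of all tested genes by this fold change, the 8 lay between percentiles 0.658 and 2.07.

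**Figure D2:**
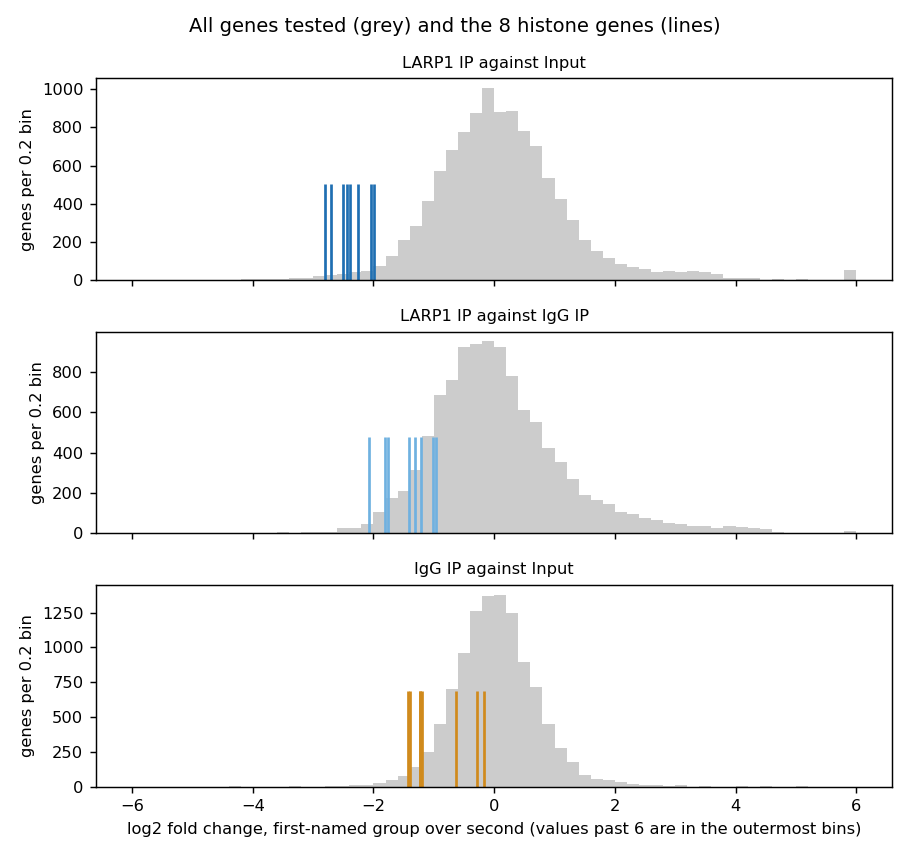
Number of genes per bin of log2 fold change (grey bars, bin width 0.2, values past 6 in the outermost bins) for the 10788 genes tested in each comparison, with the 8 histone genes as coloured lines. The lines lie in the lower tail against Input (-2.81 to -1.99), further inward against the IgG IP (-2.07 to -0.96), and are split for the IgG IP against Input (-1.44 to -0.17).

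The size of the difference from Input depended on which Input library was used. All 8 genes were higher in Input replicate 1 than in Input replicate 2, by 1.84-fold (HIST1H1E) to 3.60-fold (HIST1H4H), while the median over all genes was a log2 ratio of -0.023. Between libraries of the same replicate number, Input exceeded the LARP1 IP by 5.39-fold to 11.8-fold for replicate 1 and by 2.21-fold to 4.50-fold for replicate 2. The libraries of the LARP1 IP and Input did not overlap for any of the 8 genes, a pattern that 22.8% of all genes showed in this direction. Without Input replicate 1, edgeR called 0 of the 8 (0 of all genes; 7 of the 8 at an unadjusted p under 0.05), with a median log2 fold change of -1.49, and DESeq2 called 3 of the 7 to which it gave an adjusted p (0.528% of all genes as lower). Without Input replicate 2, edgeR again called 0 of the 8 (0 of all genes; 8 at an unadjusted p under 0.05), with a median of -2.90, and DESeq2 called 8 (0.68% of all genes). Without LARP1 IP replicate 1 edgeR called 5 (2.24% of all genes as lower) and DESeq2 called 8 (1.66%), and without LARP1 IP replicate 2 they again called 5 (0.686%) and 8 (0.791%). With libraries scaled to total counts the median of all genes was 1.75, the median of the 8 was -0.693 and edgeR called 0 as lower (0.25% of all genes), with 0 of 8 at an unadjusted p under 0.05. Relative to the median of all genes the 8 lay at -2.44 on that scale and at -2.45 with TMM. Scaling moves all genes nearly alike, so this distance could hardly change and says nothing about the calls.

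Against the IgG IP, which asks what the LARP1 antibody recovers beyond background, only the linker genes HIST1H1C and HIST1H1E passed as lower with edgeR. The other tested histone genes were lower too, and their values overlapped those of the linker genes within the standard errors. HIST1H1E stood at -1.75 ± 0.43 (SE) and HIST1H1C at -1.82 ± 0.47 on the log2 scale, or 3.37-fold and 3.52-fold lower (edgeR adjusted p = 0.019 and 0.0249). This made 2 of 8 genes lower and 0 higher, where 2.29% of all genes passed as lower and 8.54% as higher. HIST1H4H had the largest value, -2.07 ± 0.63, and just missed the threshold with edgeR (adjusted p = 0.0512), but passed with DESeq2 (adjusted p = 0.0266), which called 3 of the 8 lower against 2.3% of all genes. At an unadjusted p under 0.05, edgeR had 6 of the 8 as lower, against 9.79% of all genes. HIST1H2AC at -1.42 ± 0.53, HIST1H2BK at -1.31 ± 0.54 and HIST1H2BD at -1.21 ± 0.46 did not pass (edgeR adjusted p = 0.109, 0.144 and 0.115). HIST1H4C at -1.02 ± 0.48 and HIST2H2BE at -0.96 ± 0.54 did not pass either (edgeR adjusted p = 0.208 and 0.292).

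The median of the 8 was -1.36 against -0.0649 over all genes, and the 8 lay between percentiles 1.05 and 14.4 of all genes. The LARP1 IP libraries lay below both IgG IP libraries for all 8 genes, as they did for 25.9% of all genes. The gap was wide between libraries numbered 1, from 3.09-fold (HIST1H2BD) to 6.81-fold (HIST1H4H), and narrow between libraries numbered 2, from 1.01-fold (HIST2H2BE) to 2.82-fold (HIST1H1C). All 8 genes were higher in IgG IP replicate 1 than in IgG IP replicate 2, by 1.40-fold (HIST1H1E) to 2.44-fold (HIST1H4H). The median over all genes was a log2 ratio of -0.011. The linker calls depended on single libraries by edgeR. Without IgG IP replicate 1 neither passed (HIST1H1C -1.49 and HIST1H1E -1.48, edgeR adjusted p = 0.0819 for either), and without LARP1 IP replicate 2 neither passed (-1.81 and -1.77, 0.0855 and 0.0692). Without LARP1 IP replicate 1, HIST1H1E passed and HIST1H1C did not (edgeR adjusted p = 0.0489 and 0.0532), and without IgG IP replicate 2 edgeR called 4 of the 8 (2.7% of all genes as lower). With DESeq2, HIST1H1E passed without each library in turn, with adjusted p of at most 0.0498, and without IgG IP replicate 1 it was the only gene of the 8 that passed. The comparisons against Input and against the IgG IP share the LARP1 IP libraries, so their values are given side by side and not as support for each other.

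**Figure D3:**
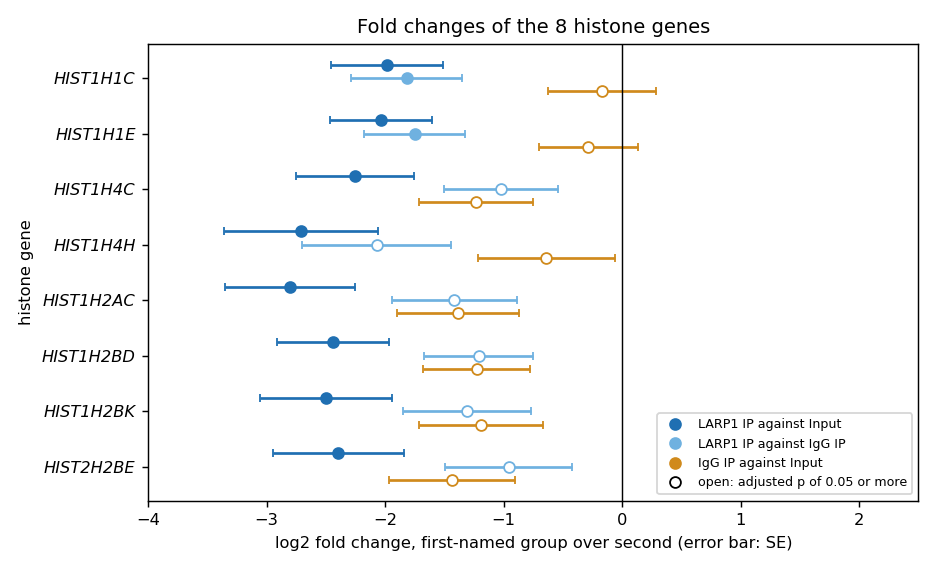
Log2 fold changes of the 8 histone genes from edgeR (points) with their standard errors (bars) in the 3 comparisons, filled where the adjusted p was under 0.05. All 8 are filled for the LARP1 IP against Input, HIST1H1C and HIST1H1E are filled against the IgG IP, and none is filled for the IgG IP against Input.

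What the control serum recovers of these mRNAs was read from the IgG IP against Input. By edgeR 0 of the 8 passed, as 0% of all genes did (5 of the 8 had an unadjusted p under 0.05 as lower, against 3.16% of all genes), and by DESeq2 0 passed of the 7 with an adjusted p (HIST1H4H had none), where 0.176% of all genes passed as lower. Values nevertheless ranged widely. HIST2H2BE stood at -1.44 ± 0.53 (SE), HIST1H2AC at -1.39 ± 0.52, HIST1H4C at -1.23 ± 0.48, HIST1H2BD at -1.23 ± 0.45 and HIST1H2BK at -1.19 ± 0.52, with edgeR adjusted p from 0.721 to 0.737. HIST1H4H stood at -0.64 ± 0.58. The linker genes were closest to 0, with HIST1H1E at -0.28 ± 0.42 and HIST1H1C at -0.17 ± 0.45. Leaving out 1 library moved these values. Without Input replicate 1 the median of the 8 went from -1.21 to -0.286, with 0 of 8 at an unadjusted p under 0.05 by edgeR, and the first 5 genes above stood at -0.55, -0.59, -0.46, -0.60 and -0.11. Without IgG IP replicate 1 HIST1H2AC stood at -2.13 and HIST2H2BE at -2.10. Libraries of the 2 groups did not overlap for HIST1H4C, HIST1H2AC, HIST1H2BD and HIST2H2BE (4 of 8, against 19.3% of all genes in this direction). Scaling to total counts shifted the median over all genes from 0.0082 to 1.51, and all 8 values turned positive (0.16 to 1.40), and HIST1H1C and HIST1H1E passed as higher (edgeR adjusted p = 0.0291 and 0.0262), as did 53.9% of all genes.

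The make-up of the histone counts was also compared within each library, which needs no scaling. The linker genes HIST1H1C and HIST1H1E held 46.0% (95% Wilson interval 44.04 to 48) and 51.3% (48.4 to 54.2) of the histone counts in Input, 58.5% (55.5 to 61.3) and 52.4% (48.7 to 56.0) in the LARP1 IP, and 62.6% (61.2 to 64.0) and 67.8% (66.0 to 69.5) in the IgG IP. The groups did not overlap, with Input lowest and the IgG IP highest, although Input replicate 2 and LARP1 IP replicate 2 lay within each other's counting intervals. As a ratio of linker to core histone counts, the mean was 0.953 ± 0.142 for Input, 1.25 ± 0.216 for the LARP1 IP and 1.89 ± 0.302 for the IgG IP (SD, n = 2 each). The gap between the IgG IP and Input was larger than the spread between replicates, and that between the LARP1 IP and Input exceeded either SD, although the nearest libraries of these 2 groups stood at 1.10 and 1.05. Set against HIST1H4C alone, the linker counts gave ratios of 3.04 and 3.63 in Input, 4.81 and 3.12 in the LARP1 IP, and 6.20 and 6.74 in the IgG IP, so the LARP1 IP and Input overlapped on this measure. The ratios were chosen after their values were seen, and with 2 libraries a group the smallest two-sided p of an exact permutation test is 0.333.

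**Figure D4:**
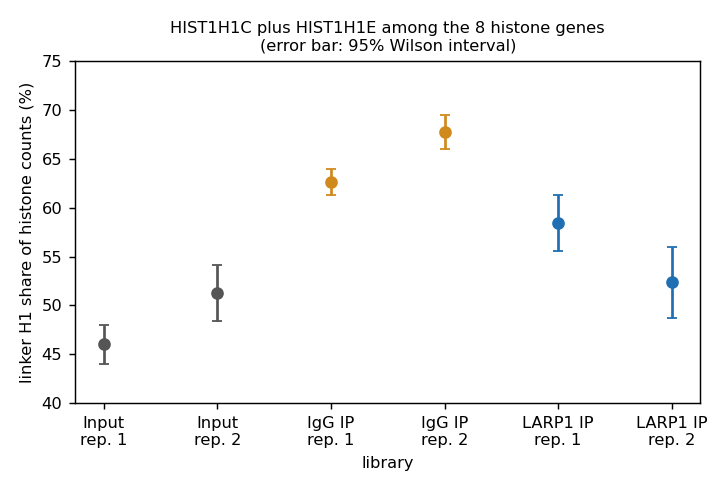
Share of the counts of the 8 histone genes that belonged to HIST1H1C and HIST1H1E in each of the 6 libraries, in percent, with 95% Wilson intervals for counting error. The IgG IP libraries (62.6% and 67.8%) lie above the LARP1 IP libraries (58.5% and 52.4%) and the Input libraries (46.0% and 51.3%).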

How the data were processed

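The authors deposited raw read counts per gene, 1 file per library, without normalization. The submitters' processing notes name GRCh38, Bowtie2 and TopHat2 2.1.1, CASAVA 1.8, and, featureCounts and Subread 1.20.6. Which annotation release and strand setting were used, and how multi-mapping reads were handled, is not given in the sources used here. Groups and replicate numbers came from the sample titles. No 2 libraries of the same group were duplicates: counts within a group differed by 4.73 to 29.8 times sampling noise (chi-square per degree of freedom).

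Counts were fitted with edgeR 4.0.16 in R 4.3.3 (filterByExpr with a minimum count of 10, TMM, glmQLFit with all 6 libraries and group as the only term, 3 residual degrees of freedom). Genes passed at an adjusted p (Benjamini-Hochberg) under 0.05 over all 10788 genes tested, and fold changes use a prior count of 0.125. Standard errors were derived as the absolute log2 fold change divided by the square root of the F statistic of the quasi-likelihood test. DESeq2 1.42.0 was an alternative. The scripts of both fits were checked on simulated counts, which bears on the code and not on single calls. All 10 genes are named. The genes, lists and tests were chosen with earlier results of these data known. Lists fixed by symbol were used for sequences only, since the RefSeq gene annotation used (GRCh38.p14) held 0 Ensembl IDs to match. For the same reason no gene of like pattern is named.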

Additional observations from a re-analysis of the deposited data

How the results depend on the processing

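Against Input, the 8 genes were lower under all alternatives, and the number called was 8 except with total counts (0) and without single libraries (0 to 8 over edgeR and DESeq2, where DESeq2 without Input replicate 1 gave 3 of 7). DESeq2 without each library was chosen after seeing the data. With 8 called against Input, the share of all genes called lower was 0.949% with no filter. It was 1.94% with upper-quartile factors, 2.58% with the 4 libraries compared and 2.96% with a minimum count of 50. With the 2 most abundant genes left out of the totals it was 10.8%. Against the IgG IP the 8 were also lower under all alternatives, but the number called depended on the setting. It moved from 2 to 8 once the 2 most abundant genes were left out of the total counts (37.9% of all genes as lower, against 2.29%). With no filter it was 4 (1.52%). It was 2 with total counts (0.695%) and with the 4 libraries compared (0.751%). With DESeq2 (2.3%), upper-quartile factors (2.98%) and a minimum count of 50 (5.54%) it was 3. The calls also moved without single libraries, as given above. There the edgeR median of the 8 ran from -0.87 (without IgG IP replicate 1) to -1.74 (without IgG IP replicate 2). For the IgG IP against Input, 2 genes were called higher with total counts (53.9% of all genes) and 0 under the others. There all 8 reversed with total counts: HIST1H1C 1.40, HIST1H1E 1.28, HIST1H4H 0.96, HIST1H2BK 0.39, HIST1H4C 0.34, HIST1H2BD 0.34, HIST1H2AC 0.21 and HIST2H2BE 0.16. Leaving the 2 most abundant genes out of the totals turned HIST1H1C to 0.08. Leaving out single libraries in that comparison gave edgeR values of -0.66 to 0.59 for HIST1H1C, -0.64 to 0.21 for HIST1H1E and -1.42 to 0.55 for HIST1H4H. DESeq2 turned HIST1H1C to 0.06 without IgG IP replicate 2, and without Input replicate 1 it turned the same 3 genes to 0.59, 0.21 and 0.54. The summed level became 194 CPM (LARP1 IP) 510 CPM (IgG IP) and 274 CPM (Input, below the IgG IP) with total counts, and 256 CPM (LARP1 IP), 1757 CPM (IgG IP) and 2357 CPM (Input) with those 2 genes left out of the totals. Leaving out a library assumes that the lone library of its group varies like the others. Beyond scaling, filter and the number of libraries, the cause was not tested.

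The groups share replicate numbers but no stated batch. Deviations of same-numbered libraries correlated at 0.134 to 0.519 over genes, a hint from the data only. With the replicate block, 6 of the 8 genes were lower against the IgG IP (HIST1H4H, HIST1H2AC, HIST1H2BD and HIST1H2BK in addition), as were 8.43% of all genes. Against Input 8 were lower (5.11% of all genes), and in the IgG IP against Input 0 were (0.324%). Calls over all genes against the IgG IP rose from 247 to 909 lower and from 921 to 1526 higher. The fewest counts behind a value were 14, for HIST1H4H in LARP1 IP replicate 2.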
